A study of Mus musculus with 16 samples.

Results

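Chromatin accessibility of mouse E14 embryonic stem (ES) cells was read in 16 ATAC-seq libraries, and replicates 1 and 2 of every genotype were compared with replicates 3 and 4, with genotype as a covariate. The members are the 68487 autosomal peaks of 70150 in the authors' merged list (1656 lay on X and 7 on Y), of which 68038 passed a filter on low counts and were tested. The comparison set 8 libraries (replicates 1-2) against 8 (replicates 3-4), 2 and 2 in each of 4 genotypes: AID-Zzz3, AID-Yeats2, Supt7l knockout (KO) and wild type (WT). Supt7l belongs to the SAGA complex and the other two proteins to the ATAC complex, both histone acetyltransferases, and AID stands for a degron tag through which auxin triggers loss of the tagged protein. Every culture, WT included, was given auxin for 24 h. The medium held 15% serum, LIF at 1500 U/ml, the GSK3 inhibitor CHIR99021 at 3 µM and the MEK inhibitor PD0325901 at 1 µM. Tn5 at 25 nM was applied to 100000 cells per library, amplified over 14 PCR cycles and read as pairs of 100 bp.

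The series text mentions 2 days and 2 clones, but its sample numbers do not cover these libraries, so neither was assigned to a library. Day, clone and anything else that goes with the replicate numbers cannot be told apart. Nothing in the labels says that the libraries came from separate cultures, so p-values measure only the spread between these libraries.

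ATAC-seq reads open chromatin through the Tn5 transposase, which inserts adapters where DNA is not covered by nucleosomes, so promoters and enhancers give peaks of fragments. Gene-rich parts of mammalian chromosomes tend to replicate early and to lie in the nuclear interior, whereas gene-poor parts tend to replicate late, to touch the lamina and to hold many LINE-1 elements. In bulk cells, a site open in fewer cells and a site less open in each cell cannot be told apart.

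Sequences are given first for promoters on which the comparison turns. They are, in each direction, the 3 with the largest log2 change among the named promoters whose peak overlaps best, by at least 150 bp, a window of the same gene name in RefSeq's table for GRCm38.p6, the assembly of mm10. Each runs from 250 bases before to 50 bases after the gene's start, in the direction of the gene, and capitals mark CpG dinucleotides, the sites of DNA methylation, because CpG number differed between higher and lower promoters. The first 3 were higher in replicates 1-2: Mtch1 (chr17:29347883-29348182, minus strand, 18 CpG), a mitochondrial outer membrane carrier, Gtf3c5 (chr2:28583230-28583529, minus strand, 9 CpG), a subunit of the RNA polymerase III factor TFIIIC, and Slc6a16 (chr7:45240503-45240802, plus strand, 19 CpG), an orphan neurotransmitter transporter relative.
Mtch1: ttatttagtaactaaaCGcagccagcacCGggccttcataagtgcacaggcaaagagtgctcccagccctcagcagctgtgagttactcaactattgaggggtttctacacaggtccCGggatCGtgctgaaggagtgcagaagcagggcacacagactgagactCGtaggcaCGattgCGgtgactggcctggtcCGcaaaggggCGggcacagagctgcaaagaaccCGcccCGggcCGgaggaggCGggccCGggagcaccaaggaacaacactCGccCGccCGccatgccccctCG
Gtf3c5: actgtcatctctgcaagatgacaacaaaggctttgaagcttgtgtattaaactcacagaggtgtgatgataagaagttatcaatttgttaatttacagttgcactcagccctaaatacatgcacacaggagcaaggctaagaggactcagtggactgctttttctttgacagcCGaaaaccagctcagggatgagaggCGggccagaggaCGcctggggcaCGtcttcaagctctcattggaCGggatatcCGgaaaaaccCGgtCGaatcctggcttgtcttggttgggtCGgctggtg
Slc6a16: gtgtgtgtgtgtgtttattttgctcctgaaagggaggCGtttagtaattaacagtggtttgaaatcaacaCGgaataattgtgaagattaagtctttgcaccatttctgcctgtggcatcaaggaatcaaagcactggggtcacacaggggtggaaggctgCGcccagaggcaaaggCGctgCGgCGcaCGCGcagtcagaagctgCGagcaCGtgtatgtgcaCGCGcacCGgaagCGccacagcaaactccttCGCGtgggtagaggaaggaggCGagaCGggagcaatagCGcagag
The next 3 were lower in replicates 1-2: Mgst1 (chr6:138140277-138140576, plus strand, 13 CpG), a microsomal glutathione transferase, Magi2 (chr5:19907268-19907567, plus strand, 4 CpG), a synaptic scaffold, and Cxcl3 (chr5:90785851-90786150, plus strand, 10 CpG), a chemokine.
Mgst1: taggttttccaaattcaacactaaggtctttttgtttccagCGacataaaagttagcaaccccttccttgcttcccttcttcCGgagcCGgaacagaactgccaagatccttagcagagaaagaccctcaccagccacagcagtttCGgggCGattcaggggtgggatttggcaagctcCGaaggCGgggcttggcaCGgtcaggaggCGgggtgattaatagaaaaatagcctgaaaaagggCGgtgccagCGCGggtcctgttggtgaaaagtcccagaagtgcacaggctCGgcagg
Magi2: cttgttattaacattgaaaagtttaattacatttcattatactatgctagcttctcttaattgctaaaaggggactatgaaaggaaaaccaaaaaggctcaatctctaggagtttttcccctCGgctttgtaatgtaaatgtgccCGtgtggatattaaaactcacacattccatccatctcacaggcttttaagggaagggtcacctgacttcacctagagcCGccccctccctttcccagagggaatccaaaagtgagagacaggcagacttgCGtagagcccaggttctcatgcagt
Cxcl3: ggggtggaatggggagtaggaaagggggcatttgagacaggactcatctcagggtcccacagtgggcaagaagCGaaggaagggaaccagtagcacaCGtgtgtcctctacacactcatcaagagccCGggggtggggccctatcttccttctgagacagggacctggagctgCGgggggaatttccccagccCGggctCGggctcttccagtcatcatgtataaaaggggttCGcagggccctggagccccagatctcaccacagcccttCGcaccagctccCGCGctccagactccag

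Counts in peaks ranged between 2492045 and 5385958 per library in replicates 1-2 and between 3295273 and 5540559 in replicates 3-4, which did not differ beyond their spread (exact permutation test within genotypes, two-sided, p = 0.591). No 2 libraries of a genotype agreed within sampling noise: chi-square per peak was 1.99 to 2.36 in the 8 pairs within a set and 2.06 to 2.94 in the 16 pairs across sets, where 1 is counting noise alone. The first principal component of genotype-centred log2 levels, over 34019 peaks above the median level, held 18.5% of the variance. Its scores were 0.0673 to 0.388 in replicates 1-2 and -0.333 to -0.129 in replicates 3-4, so the sets did not overlap on it. Promoters of the ES markers Pou5f1, Nanog and Esrrb were open in both sets, at 14.6 to 20.4, 26.7 to 38.4 and 39.6 to 59.6 CPM (counts scaled to a library total of 1000000) in replicates 1-2, against 12.5 to 21.5, 23.8 to 35.99 and 31.2 to 51.1 CPM in replicates 3-4. Of the 28 genes listed for naive pluripotency, 25 had a promoter peak and 0 were called by edgeR or DESeq2 (7 at an unadjusted p under 0.05 in edgeR), at summed levels of 739 to 957 CPM in replicates 1-2 and 696 to 961 CPM in replicates 3-4. Fibroblast markers (10 of 16 with a promoter peak, none for Col3a1, Thy1, Dcn and Postn) summed to 235 to 272 CPM in replicates 1-2 and 261 to 309 CPM in replicates 3-4, and primitive endoderm markers (11 of 19) to 385 to 449 CPM in replicates 1-2 and 391 to 495 CPM in replicates 3-4. The part of either in the results was not tested.

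Peaks in gene-rich surroundings were higher and peaks in gene-poor surroundings were lower in replicates 1-2. At a Benjamini-Hochberg adjusted p under 0.05 (edgeR quasi-likelihood test, all tested peaks), 711 autosomal peaks were higher and 525 lower in replicates 1-2. That is 1236 of 68038 tested, or 1.82% (1.05% higher, 0.772% lower). The changes were small: the median log2 change was 0.51 among the higher and -0.50 among the lower peaks, and 19 higher and 14 lower peaks changed by over 2-fold. In the same fit 1273 autosomal peaks (1.87%) were called between AID-Zzz3 and WT, 1192 (1.75%) between AID-Yeats2 and WT, and 1163 (1.71%) between Supt7l KO and WT. These genotype comparisons set 4 libraries against 4, and the set comparison 8 against 8, so the counts do not rank the sizes of the differences. At the threshold, the last called peaks had log2 changes of -0.27 (nearest 3110006O06Rik) and -0.43 (Ppp1r42), and the first not called had -0.68 (Gm41183) and 0.63 (Rfx4).

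Peaks called in 3 genotypes were read in the libraries of the genotype left out, and most went the same way there. Of 122 higher and 84 lower peaks called without AID-Zzz3, 90.2% and 90.5% went the same way in AID-Zzz3, with medians of 0.46 and -0.35 (log2). In AID-Yeats2 the shares were 87.0% of 292 and 83.9% of 224, in Supt7l KO 85.2% of 176 and 84.7% of 124, and in WT 81.0% of 405 and 83.4% of 301. Among all peaks, called or not, the share with the sign seen in the other genotypes was 57.3 to 60.4%. One autosomal peak, 0.00147% of those tested, had a set difference that depended on genotype, at the promoter of Cyp1a1, a cytochrome P450 of the aryl hydrocarbon response (chromosome 9, 57696007 to 57697309). Its log2 difference between sets was 0.092 in AID-Zzz3, -0.20 in AID-Yeats2, 1.45 in Supt7l KO and 0.12 in WT (edgeR interaction test, adjusted p = 0.0203). In Supt7l KO the level was 45.4 and 38.0 CPM in replicates 1-2, against 15.1 and 14.6 CPM in replicates 3-4. At an unadjusted p under 0.05 this test was reached by 3578 peaks, and a likelihood ratio test in DESeq2 called 0 (1677 at an unadjusted p under 0.05).

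Gene number around a peak separated the calls, a grouping chosen after values were seen and therefore given without a test. Among peaks with 0 to 5 RefSeq protein-coding genes within 500000 bp on either side, 81 were higher and 346 lower of 19841 tested. With 6 to 9 genes the counts were 127 higher and 106 lower of 15349, and with 10 to 17 genes 185 and 49 of 16904. With 18 to 72 genes they were 318 higher and 24 lower of 15944. The median log2 change ran -0.096, -0.025, 0.030 and 0.089 over these groups. Higher peaks had a median of 16 genes around them (quartiles 8 and 27) and lower peaks 4 (2 and 7), beside 9 (5 and 17) for all tested peaks.

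**Figure D1:**
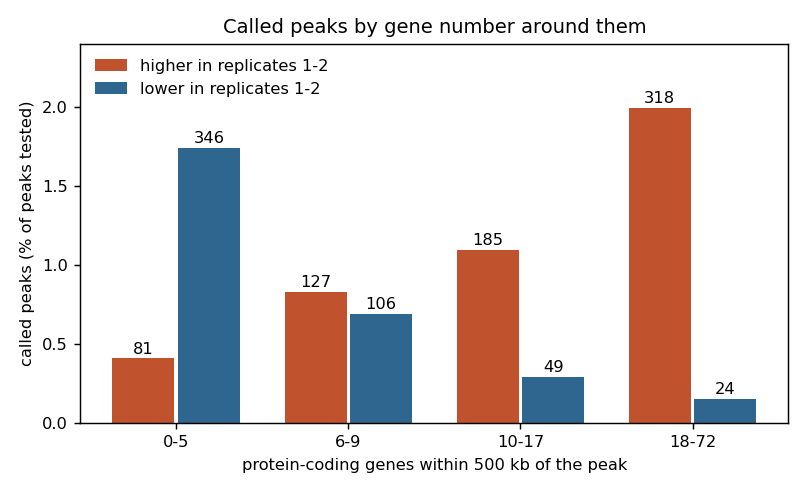
Share of tested autosomal peaks called higher (left bars) or lower (right bars) in replicates 1-2, in %, by the number of protein-coding genes within 500000 bp; numbers over the bars are counts of peaks. Higher calls climb to 318 and lower calls drop to 24 in the group with 18 to 72 genes.

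The same holds library by library. The median deviation of peaks with 18 to 72 genes minus that of peaks with 0 to 5 genes (log2 CPM, each peak against its mean over all libraries) was -0.050 and -0.022 in replicates 1-2 of AID-Zzz3, against -0.27 and -0.26 in its replicates 3-4. In AID-Yeats2 it was -0.026 and -0.081 in replicates 1-2, against -0.12 and -0.22 in replicates 3-4. Supt7l KO gave 0.28 and 0.25 in replicates 1-2, against 0.070 and 0.066 in replicates 3-4. WT gave 0.21 and 0.12 in replicates 1-2, against -0.037 and 0.034 in replicates 3-4. Both libraries of replicates 1-2 lay above both of replicates 3-4 in each genotype, by 0.23 in AID-Zzz3, 0.11 in AID-Yeats2, 0.20 in Supt7l KO and 0.17 in WT, while the genotypes themselves sat at different levels.

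**Figure D2:**
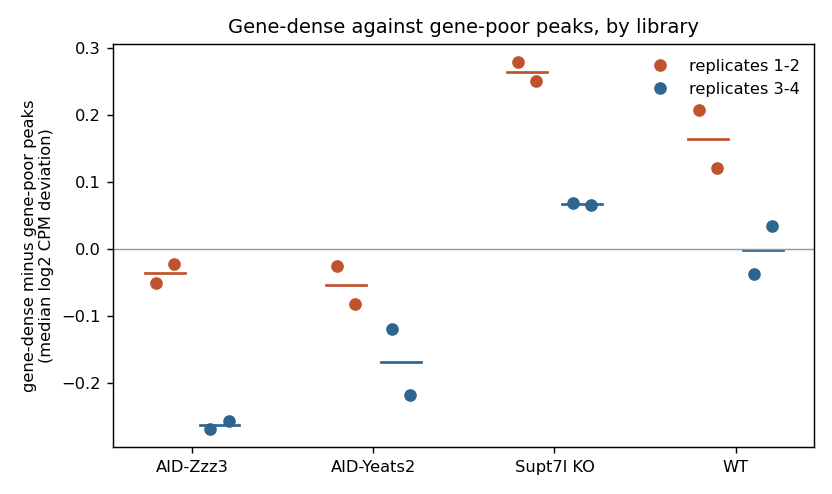
Median log2 CPM deviation of peaks with 18 to 72 genes within 500000 bp minus that of peaks with 0 to 5 genes, 1 point per library and a line at the mean of each pair, with replicates 1-2 left of replicates 3-4 in each genotype. The 2 points of replicates 1-2 are above both points of replicates 3-4 in all 4 genotypes.

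Windows of 1000000 bp show the same gradient across the genome. Of the 1952 windows with at least 10 tested peaks, 11.5% of the 711 with up to 5 genes had a median log2 change above 0. The share was 33.8% of 557 windows with over 5 and up to 10 genes, 62.5% of 432 with over 10 and up to 20, and 79.8% of 252 with more. Across windows, which share libraries and differ in base composition, the window median and the gene number had Spearman's rho of 0.59 and Pearson's r of 0.52 (n = 1952, a description).

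**Figure D3:**
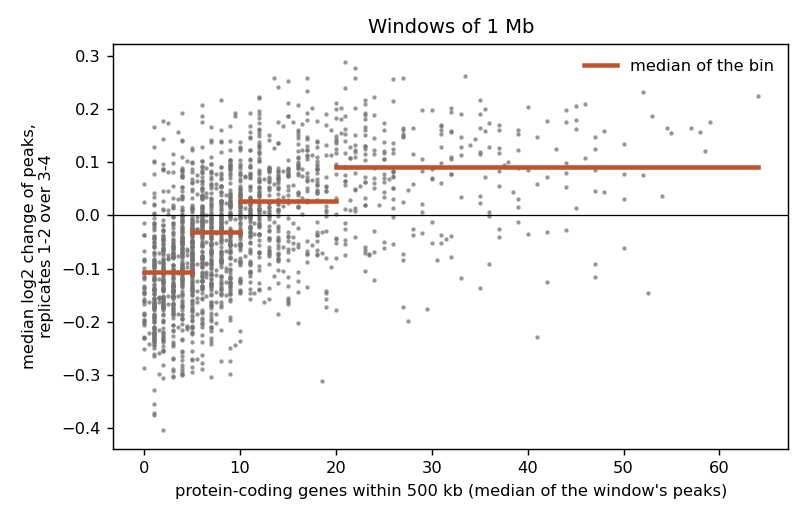
Each point is a window of 1 Mb with at least 10 tested peaks: its median log2 change, replicates 1-2 over replicates 3-4, against the median number of protein-coding genes within 500000 bp of its peaks; lines mark the median of windows with up to 5, 10, 20 and more genes. The lines step up from -0.11 over -0.032 and 0.028 to 0.090.

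Single windows, picked here as the extremes of the same values, held few called peaks each. The high windows named below had a median of 21 to 33.5 genes around their peaks. The lowest window, around Vim, had 7, outside the group with 0 to 5 genes, and the chromosome 10 window had 4. The next lowest, on chromosomes 1, 12 and 11, had 9, 3 and 6, beside 9 for all tested peaks. Among the 1050 windows with at least 30 peaks, the highest median was 0.29 on chromosome 15 (77000001 to 78000000, 33 peaks, around the nonmuscle myosin gene Myh9 and the splicing regulator gene Rbfox2), with 0.39 in AID-Zzz3, 0.30 in AID-Yeats2, 0.28 in Supt7l KO and 0.12 in WT. Next came chromosome 4 (136000001 to 137000000, 43 peaks, 0.28), with Id3, E2f2 and the demethylase gene Kdm1a, and the start of chromosome 19 (3000001 to 4000000, 30 peaks, 0.26), with Chka and Cpt1a. A window of chromosome 2 (30000001 to 31000000) had 69 peaks with a median of 0.26, of which 8 were higher and 0 lower. It holds 24 genes with a promoter peak, among them Set, Crat and Endog. The lowest median, -0.30, was also on chromosome 2 (13000001 to 14000000, 33 peaks, 1 higher and 4 lower), around Vim, at -0.29 in AID-Zzz3, -0.21 in AID-Yeats2, -0.31 in Supt7l KO and -0.037 in WT. Chromosome 10 from 14000001 to 15000000 followed (31 peaks, -0.28, from -0.31 to -0.22 over the genotypes), with the adhesion receptor gene Adgrg6.

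By chromosome, 11 of 19 autosomes differed from the rest (exact permutation test of library values within genotypes, two-sided, 52 classes, adjusted p under 0.05), at an unadjusted p between 0.00154, the smallest that 1296 arrangements can give, and 0.0185. Chromosome 19, gene-rich, was higher in replicates 1-2 by 0.056 (log2; adjusted p = 0.0134, 31 peaks higher and 6 lower) and chromosome 11 by 0.054 (adjusted p = 0.0134, 73 and 23), in the same exact test. Chromosomes 4, 7 and 15 were also higher. Chromosomes 1, 3, 6, 10, 13 and 18 were lower in replicates 1-2, chromosome 3 by -0.046 (adjusted p = 0.0134, 19 peaks higher and 51 lower). Over the 19 autosomes, which share libraries, the median change and the median gene number had Spearman's rho of 0.75 (a description). Chromosome 14 differed between libraries of 1 genotype in both sets: relative to the other autosomes WT stood at 0.11 and -0.13 in replicates 1 and 2, against -0.094 and 0.13 in replicates 3 and 4 (log2). The distal parts of chromosomes 14 (beyond 60 Mb) and 17 (beyond 70 Mb) held 13 higher and 27 lower calls of 2333 tested peaks.

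Distance to a gene start ordered the classes, and whether promoters passed depended on how they were defined. Peaks over 100000 bp from a transcription start site (TSS) were lower in replicates 1-2 by -0.098 relative to the rest (2061 peaks, 10 higher and 36 lower; exact permutation adjusted p = 0.0134, in all 4 genotypes). Those at 10000 to 100000 bp were lower by -0.035 (adjusted p = 0.0378, exact permutation), though 225 were called higher and 203 lower of 25809. Those at 1000 to 3000 bp were higher by 0.029 (exact permutation adjusted p = 0.0134, 83 higher and 41 lower of 6765). Promoter peaks within 1000 bp of a TSS differed by 0.031 (18233 peaks, 229 higher and 160 lower; exact permutation p = 0.0895, adjusted p = 0.153), by 0.091 in AID-Zzz3, 0.0071 in AID-Yeats2, 0.028 in Supt7l KO and -0.0036 in WT. A window of 3000 bp gave 0.036 (exact permutation p = 0.0293). Peaks that the deposited annotation calls promoter-TSS passed, higher by 0.045 (12884 peaks, 193 higher and 101 lower; exact permutation p = 0.0201, adjusted p = 0.0454), by 0.11 in AID-Zzz3, 0.023 in AID-Yeats2, 0.046 in Supt7l KO and 0.0046 in WT. Within groups of like gene number, promoters minus other peaks differed between sets by -0.018, -0.0056, -0.0047 and 0.0084 (log2, 0 to 5 up to 18 to 72 genes). In the group with 0 to 5 genes 5 promoter peaks were higher and 97 lower, and in the group with 18 to 72 genes 152 and 9 (0.164% and 3.19% of 3043, and 2.24% and 0.133% of 6778).

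**Figure D4:**
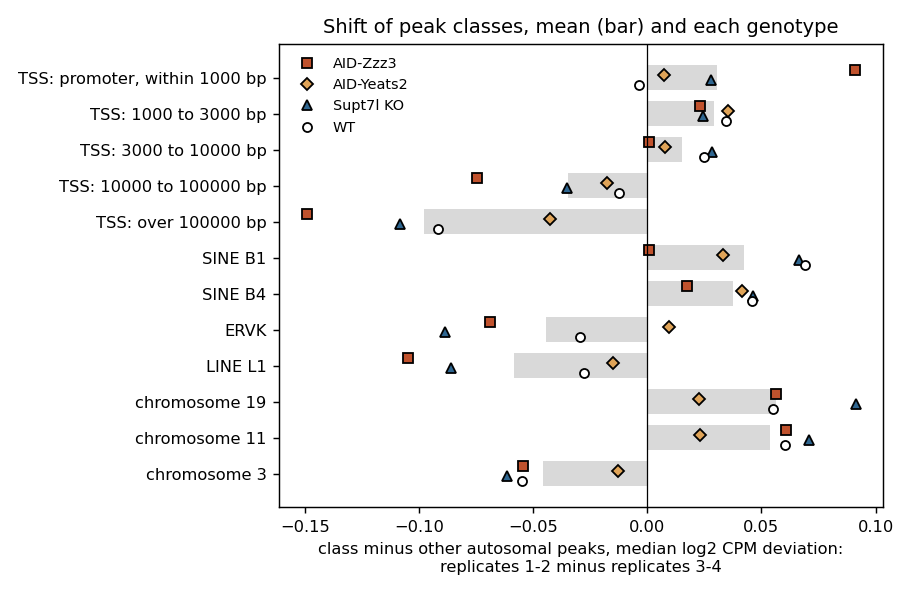
Shift of peak classes relative to all other autosomal peaks, as the median log2 CPM deviation in replicates 1-2 minus that in replicates 3-4; bars are the mean of 4 genotypes and symbols are single genotypes. Peaks over 100000 bp from a TSS lie lowest (-0.098), and ERVK peaks lie below 0 in each genotype but AID-Yeats2 (0.0093).

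Repeats differed by family. ERVK peaks, from long terminal repeats (LTRs) of endogenous retroviruses, were lower in replicates 1-2 by -0.045 (4736 peaks, 49 higher and 80 lower; exact permutation adjusted p = 0.0454), though AID-Yeats2 gave 0.0093. LINE-1 peaks were lower by -0.058 (1830 peaks; adjusted p = 0.0301, exact permutation). Their calls did not lean that way: 15 were higher and 12 lower (0.820% and 0.656%, beside 1.05% and 0.772% of all tested peaks). The short SINE B1 and B4 families, which are dense near genes, were higher by 0.042 (691 peaks, 10 higher and 5 lower; adjusted p = 0.0301) and 0.038 (762 peaks, 17 higher and 1 lower; adjusted p = 0.0134, exact permutation). For SINE B1 the difference was 0.00069 in AID-Zzz3, against 0.033 in AID-Yeats2, 0.067 in Supt7l KO and 0.069 in WT. SINE B2 (2084 peaks, -0.0088) and ERV1 (706 peaks, -0.0084) did not pass. With each library corrected for gene number (gene density offsets), added after values were seen, no distance, feature or repeat class passed, though some differences kept much of their size. SINE B4 was then 0.034 (exact permutation p = 0.0108, adjusted p = 0.0556) and SINE B1 0.033 (adjusted p = 0.0676, exact permutation), while LINE-1 was -0.022 and ERVK -0.00049. ERVL-MaLR, another LTR family (2802 peaks), was 0.027 (adjusted p = 0.0556, exact permutation), against 0.012 without the correction. After it, 9 of 52 classes passed: chromosomes 1, 3, 4, 6, 11, 15 and 16, peaks of 709 to 1002 bp and promoter windows of 61.7 to 67.3% GC.

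Higher and lower promoters differed in sequence and gene length, but most of the tested sequence classes did not pass. In the RefSeq windows, present for 10266 tested autosomal peaks, the median CpG number was 23 at 165 higher and 15 at 105 lower promoters, beside 20 at all, and GC content was 62.7%, 58.3% and 61.3%. Of the GC classes, each set against the other windows, only that of 61.7 to 67.3% passed (0.018, exact permutation adjusted p = 0.0134). Windows of 67.7 to 88% GC differed by 0.0044 (adjusted p = 0.859, exact permutation). This was -0.057 in WT and -0.020 in AID-Yeats2, against 0.037 in AID-Zzz3 and 0.057 in Supt7l KO. Windows with 0 to 13 CpG gave 25 higher and 46 lower peaks of 2828, and those with 21 to 28 CpG gave 59 and 21 of 2558. Windows with 29 to 65 CpG gave 42 and 14 of 2554, with shifts of -0.047 in WT and -0.018 in AID-Yeats2, against 0.048 in AID-Zzz3 and 0.069 in Supt7l KO. Peaks annotated as CpG islands differed by 0.021 (exact permutation adjusted p = 0.327), with 29 higher and 30 lower of 2539. The CCAAT box (letters CCAAT, either strand) was in 56.4% of the higher, 33.3% of the lower and 38.6% of all tested windows, and in 37.4% of all 32851 RefSeq windows. ETS letters (CCGGAAG, either strand) were in 18.8%, 5.71% and 16.3%, and in 8.86% of RefSeq windows. The GC box (GGGCGG) was in 73.9%, 56.2% and 64.9%, and in 35.7% of RefSeq windows. The other 5 motifs searched on both strands were not more frequent at the higher than at the lower promoters, apart from YY1 letters (AAGATGGCG; 1.82% of higher, 0.952% of lower, 2.72% of all tested and 1.40% of RefSeq windows). TATAAA was in 3.64%, 5.71% and 6.32%, and in 13.6% of RefSeq windows, and the E-box CACGTG in 7.27%, 9.52% and 10.5%, and in 7.15%. The CRE letters TGACGTCA were in 0.606%, 3.81% and 3.20%, and in 1.79%, and the NRF1 letters TGCGCATGC in 1.21%, 1.90% and 2.86%, and in 1.52%. None of these 8 motifs contains another, and a match is a description of the window. By length, promoters of coding genes of 438 to 12570 bp gave 70 higher and 20 lower peaks of 3688, and those of genes of 76602 bp and more gave 27 and 61 of 3688 (medians 0.064 and -0.033).

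Single peaks are named by a fixed rule: called, above the median level, with both libraries of replicates 1-2 on the same side of both libraries of replicates 3-4 in every genotype. That consistency held for 386 of the 1236 calls (229 higher, 157 lower), and in 45 higher and 33 lower calls all 8 libraries of one set lay beyond all 8 of the other. Among all 68038 tested peaks, called or not, 94 were apart in this last way. Calling a peak favours such separation, and the share of all tested peaks that were consistent in every genotype was not counted.

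Of the 10 named higher peaks, 5 lay in introns, 2 in exons, 2 between genes and 1 at a promoter. Chka, the choline kinase that starts phosphatidylcholine synthesis, had its peak 9076 bp upstream of the gene (ENSMUSG00000024843; chromosome 19, 3842125 to 3843269, annotated as intron), at 16.4, 24.1 and 27.0 CPM (lowest, median and highest) in replicates 1-2, against 8.27, 13.1 and 17.6 CPM in replicates 3-4. It was higher in replicates 1-2 by 0.88 on the log2 scale (SE 0.13, edgeR adjusted p = 2.71e-05), and only WT replicate 2 and AID-Yeats2 replicate 4 lay inside the range of the other set. Bub1b, a kinase of the spindle checkpoint, had a peak in its last exon (ENSMUSG00000040084; chromosome 2, 118641110 to 118641526) with 14.3, 18.8 and 19.8 CPM in replicates 1-2, against 4.47, 10.4 and 13.5 CPM in replicates 3-4. The 8 libraries of each set did not overlap (0.86, SE 0.15, edgeR adjusted p = 2.92e-04). An intron of Ice1, a subunit of the little elongation complex of small nuclear RNA genes (ENSMUSG00000034525; chromosome 13, 70626151 to 70626916), had 21.7, 26.9 and 30.8 CPM in replicates 1-2, against 9.85, 17.004 and 20.5 CPM in replicates 3-4, again without overlap (0.73, SE 0.12, edgeR adjusted p = 1.91e-04). This peak has 2 genes within 500000 bp, few for a higher peak. Arfgef1, a guanine nucleotide exchange factor of Golgi traffic (log2 0.87, adjusted p = 1.67e-04, edgeR), and Zmym4, a zinc finger gene (0.73, adjusted p = 1.91e-04, edgeR), were also without overlap, as was a peak 6120 bp upstream of Epop, a partner of Polycomb repressive complex 2 (0.72, adjusted p = 0.00351, edgeR). Rapgef2, Nup210l, the pseudogene Llph-ps1 and the Ppp2r2c promoter completed the 10, at 0.73 to 0.80.

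Of the 10 named lower peaks, 9 had at most 7 genes within 500000 bp and 1, at Malat1, had 60. The peak nearest Snora24, a small nucleolar RNA gene (ENSMUSG00000092730; chromosome 3, 123506041 to 123506492, 1800 bp from its start and in the last exon of the protease gene Prss12), had 3.99, 6.04 and 10.5 CPM in replicates 1-2, against 9.29, 16.4 and 21.03 CPM in replicates 3-4. It was 2.42-fold lower by the fitted log2 change of -1.28 (SE 0.16, edgeR adjusted p = 1.32e-07), between -1.36 and -1.07 in the 4 genotypes, and 1 library of each set lay inside the range of the other. Malat1, a long nuclear noncoding RNA, had its peak 1996 bp from the annotated start (ENSMUSG00000092341; chromosome 19, 5794290 to 5795622), with 11.8, 15.2 and 19.1 CPM in replicates 1-2, against 19.7, 25.4 and 36.3 CPM in replicates 3-4. No library overlapped (log2 -0.81, SE 0.12, edgeR adjusted p = 2.71e-05), although the peak has 60 genes around it. Sox6, a transcription factor gene of neural and cartilage cells (ENSMUSG00000051910; chromosome 7, 115865703 to 115866777, intron), had 11.1, 15.3 and 18.3 CPM in replicates 1-2, against 18.5, 24.6 and 27.7 CPM in replicates 3-4, without overlap (-0.64, SE 0.12, edgeR adjusted p = 0.00121). An intron peak of Rbms3, an RNA-binding protein gene, fell by 0.88 (edgeR adjusted p = 4.50e-04). Introns of Rorb, a nuclear receptor, Sema6d, a guidance ligand, Elavl2, a neuronal RNA-binding protein, and Slc4a10, a bicarbonate transporter, had changes of -0.72 to -0.62, of which Slc4a10 was without overlap. The Sema6d and Slc4a10 calls were each lost in 1 of 16 omissions of a library. Counts thinned to the smallest library ended the calls of Rorb and Sema6d, and gene density offsets ended that of Sema6d. The promoters of Mgst1 and Magi2 completed the 10.

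**Figure D5:**
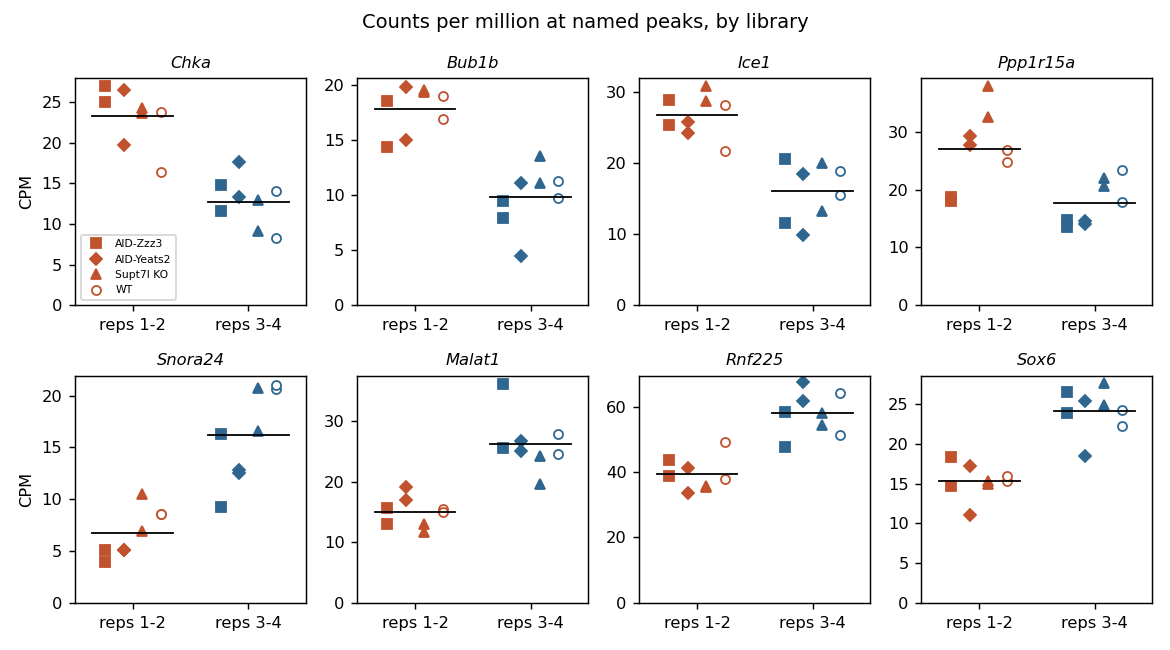
CPM of 8 named peaks in every library, replicates 1-2 left of replicates 3-4; symbols are genotypes and lines are means of 8 libraries. The upper row (Chka, Bub1b, Ice1, Ppp1r15a) is higher and the lower row (Snora24, Malat1, Rnf225, Sox6) lower in replicates 1-2, without overlap of the sets for Bub1b, Ice1, Malat1 and Sox6.

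Among promoters only, the 10 named higher ones changed by 0.52 to 0.78 and the 10 lower ones by -0.72 to -0.51 (log2). Ppp1r15a, the stress-induced phosphatase subunit that restores translation (ENSMUSG00000040435; chromosome 7, 45525788 to 45526554), had 17.98, 27.3 and 38.0 CPM in replicates 1-2, against 13.5, 16.3 and 23.4 CPM in replicates 3-4 (0.59, SE 0.12, edgeR adjusted p = 0.00186). The sets overlapped. Slc6a16, printed above, was without overlap at 20.6, 26.0 and 29.6 CPM in replicates 1-2, against 14.1, 18.1 and 20.6 CPM in replicates 3-4 (0.53, SE 0.12, edgeR adjusted p = 0.00557). Mtch1 and Gtf3c5, also printed, changed by 0.58 and 0.54 (edgeR adjusted p = 0.00515 for both). Gpaa1, of the GPI anchor transamidase, St6galnac4, a sialyltransferase, Fam213b, a prostamide synthase, Dnah14, a dynein chain, and Ppp2r2c, a regulatory subunit of protein phosphatase 2A, were also among them. With gene density offsets the calls of Slc6a16, Gpaa1 and St6galnac4 were lost (0.39, 0.41 and 0.44, edgeR adjusted p = 0.0711, 0.0702 and 0.0624). The St6galnac4 and Dnah14 calls were each lost in 1 of 16 omissions of a library, and that of Dnah14 also with counts thinned to the smallest library.

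At the lower promoters, Rnf225, a RING finger gene (ENSMUSG00000033967; chromosome 7, 12926821 to 12928958), had the highest level, 33.7, 38.4 and 49.2 CPM in replicates 1-2, against 47.6, 58.3 and 67.6 CPM in replicates 3-4 (-0.56, SE 0.084, edgeR adjusted p = 2.71e-05), with 31 genes around it. Upp1, uridine phosphorylase (chromosome 11, 9118401 to 9119062), had 11.1, 21.05 and 25.0 CPM in replicates 1-2, against 26.2, 29.5 and 32.3 CPM in replicates 3-4, without overlap (-0.55, SE 0.11, edgeR adjusted p = 0.00351). Parva, an adaptor of integrin adhesions (-0.51, adjusted p = 0.0160, edgeR), was also without overlap. Mgst1 had 8.79, 12.3 and 15.6 CPM in replicates 1-2, against 14.1, 20.4 and 23.1 CPM in replicates 3-4 (-0.69, SE 0.14, edgeR adjusted p = 0.00201). Magi2 and Cxcl3, printed above, changed by -0.69 and -0.57 (edgeR adjusted p = 0.00693 and 0.00926). The rest were Rorb, Sema3a, a secreted axon repellent, Lipa, the lysosomal acid lipase, and Il12rb2, an interleukin receptor subunit. Sema3a, Lipa and Il12rb2 were near the threshold (edgeR adjusted p = 0.0334, 0.0335 and 0.0490). Their calls were lost in 8, 11 and 14 of 16 omissions of a library. Counts thinned to the smallest library ended these calls and those of Rorb and Cxcl3. Gene density offsets ended those of Sema3a and Il12rb2.

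Gene lists were read at 1 promoter peak per gene (15037 genes, of which 1.46% were higher and 0.944% lower, median log2 change 0.024). Of 1048 listed genes 781 were measured, and 15 were higher and 7 lower in replicates 1-2, shares near those of all promoters. Each list had at most 3 members called in 1 direction. By median change, 22 of 34 lists lay above all promoters. Ribosome biogenesis (33 measured, median 0.13, 0 called by edgeR or DESeq2, 10 at an unadjusted p under 0.05), oxidative stress and metal response (28, 0.12), cytoplasmic ribosomal proteins (69, 0.096), mitochondrial ribosomal proteins (55, 0.092, 0 called by either tool, 5 unadjusted) and heat shock and protein folding (26, 0.090, 0 called by either tool, 8 unadjusted) lay highest. Germ line (12 measured, -0.12), fibroblast (10, -0.090), trophoblast (10, -0.089) and neuroectoderm genes (14, -0.089) lay lowest, with 1 member called among them, Vim. The naive pluripotency list had a median of 0.027.

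Called members are given list by list, with how many of the 16 omissions of a single library ended the call where any did. Prdx1 and Gclc were not among the up to 3 members per list followed through the omissions, so their losses were not counted. In the unfolded protein list (34 measured, 2 higher and 1 lower) these were Ppp1r15a, above, and Hspa5, the endoplasmic reticulum chaperone BiP, with 53.2, 64.8 and 76.3 CPM in replicates 1-2, against 44.1, 52.4 and 57.7 CPM in replicates 3-4 (0.33, SE 0.077, edgeR adjusted p = 0.00916). In the oxidative stress list (3 higher, 2 lower), Pgd, a dehydrogenase of the pentose phosphate pathway (0.47, adjusted p = 0.0232, edgeR; call lost in 4 of 16), Nfe2l2, the master factor of that response (0.23, adjusted p = 0.0441, edgeR; lost in 12 of 16 and with thinned counts), and the peroxidase Prdx1 (0.29, adjusted p = 0.0493, edgeR) were higher. Slc7a11, the cystine importer, was lower (chromosome 3, 50442763 to 50444199; 7.99, 10.0 and 16.2 CPM in replicates 1-2, against 13.4, 15.5 and 17.2 CPM in replicates 3-4; -0.58, SE 0.15, edgeR adjusted p = 0.0212, lost in 4 of 16 and with gene density offsets), as was the glutathione synthesis gene Gclc (-0.48, adjusted p = 0.0493, edgeR). Slc7a11 has 1 gene within 500000 bp. Glycolytic Eno1 was higher (0.44, adjusted p = 0.0169, edgeR; lost in 2 of 16 and with thinned counts). Fatty acid synthase Fasn was at 0.32 (adjusted p = 0.0410, edgeR), a call lost in 12 of 16 omissions, with thinned counts and with gene density offsets (0.21). Of 69 ribosomal protein genes measured, Rps19 (0.37, adjusted p = 0.00956, edgeR) and Rpl27 (0.38, adjusted p = 0.0248, edgeR; lost in 4 of 16) were higher, and both calls were lost with gene density offsets (0.27 and 0.28).

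Of 22 p53 targets measured, Cdkn1a, a cyclin-dependent kinase inhibitor, and Bax, a cell death effector, were called higher. Bax was at 0.36 (edgeR adjusted p = 0.0252), a call lost in 7 of 16 omissions of a library, with thinned counts and with gene density offsets (0.22, adjusted p = 0.283). Cdkn1a had 22.2, 25.9 and 36.1 CPM in replicates 1-2, against 14.9, 19.5 and 23.4 CPM in replicates 3-4 (0.49, SE 0.11, edgeR adjusted p = 0.0102). Among chromatin genes, Apobec1, a cytidine deaminase, was lower (-0.83, adjusted p = 0.0169, edgeR). Its level was low, 2.17 to 7.08 CPM in replicates 1-2, against 6.00 to 11.9 CPM in replicates 3-4. The Apobec1 call was lost in 3 of the 4 omissions of a genotype. Such losses were common: 15 of the 55 named called peaks were called without each genotype in turn. The calls of Pgd, Nfe2l2, Fasn and Dnmt1 were lost in all 4 of these omissions, and those of Cdkn1a, Hspa5 and Rps19 in 2. The cohesin gene Smc3 was higher (0.35, adjusted p = 0.0176, edgeR), a call lost in 3 of 16 omissions of a library. The maintenance methyltransferase gene Dnmt1 was at 0.30 (adjusted p = 0.0478, edgeR; lost in 12 of 16), and the remodeller genes Ep400 and Smarcd1 at 0.31 and 0.47 (adjusted p = 0.0262 and 0.0444, edgeR; lost in 5 and 12 of 16). The calls of these 3 genes were also lost with thinned counts and with gene density offsets. Of the 10 ATAC and 17 SAGA subunit promoters measured, 0 were called by edgeR or DESeq2 (1 and 0 at an unadjusted p under 0.05). Of the 10 tested peaks nearest Zzz3 or Yeats2, 0 were called by either tool (4 at an unadjusted p under 0.05). No tested peak was nearest to Supt7l.

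Egr1, Vim, Sox17 and Mkrn3 were the called members of their lists, all lower in replicates 1-2. Egr1, an immediate early gene of ERK signalling (chromosome 18, 34859846 to 34861520), had 44.1, 49.9 and 60.9 CPM in replicates 1-2, against 61.3, 69.5 and 80.1 CPM in replicates 3-4, without overlap (-0.43, SE 0.077, edgeR adjusted p = 4.03e-04). It was the 1 called of 26 immediate early promoters measured, whose median was -0.028. Vim, an intermediate filament gene (chromosome 2, 13573355 to 13575801), had 65.2, 79.8 and 88.5 CPM in replicates 1-2, against 89.5, 96.5 and 113 CPM in replicates 3-4, also without overlap (-0.31, SE 0.068, edgeR adjusted p = 0.00585). Sox17, an endoderm factor gene, had 100.2, 112 and 132 CPM in replicates 1-2, against 117, 132 and 150 CPM in replicates 3-4 (-0.23, SE 0.061, edgeR adjusted p = 0.0288), a call lost in 8 of 16 omissions of a library, with thinned counts and with gene density offsets. The imprinted gene Mkrn3 changed by -0.36 (adjusted p = 0.0156, edgeR; lost in 1 of 16 and with gene density offsets), the 1 called of 35 imprinted promoters measured.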

How the data were processed

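The authors deposited 1 table over a merged peak list, whose 16 columns of raw read counts were used and whose 16 columns of normalised values were not. Per the submitters' processing notes, the tools were DESeq2 1.16.1, bedtools 2.26.0, HOMER, MACS2 2.1.1.20160309, Bowtie2 2.2.6 and bcl2fastq 2.17.1.14, with the build mm10. Features, nearest genes and distances to a TSS are those of the deposited annotation, and starts are counted from 1.

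The reads per peak were modelled in edgeR 4.0.16 (limma 3.58.1, R 4.3.3) by two-sided quasi-likelihood F tests on 16 libraries with genotype and replicate set, TMM scaling and filterByExpr, which left 69692 peaks, and p-values were Benjamini-Hochberg adjusted over all of them. DESeq2 1.42.0 was an alternative. CPM use TMM-scaled totals, and log2 CPM also a prior count of 2. The script was tested on simulated counts.

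For each class of peaks, 1 value per library, the median log2 CPM deviation of the class minus that of the other autosomal peaks, was compared by an exact permutation test of the sets within genotypes (1296 arrangements, smallest p 0.00154), adjusted over 52 classes. Classes of gene number (RefSeq, GRCm38.p6), CpG number and gene length were chosen after values were seen and not tested. Named peaks are the 10 higher and 10 lower called peaks with the largest log2 change that were above the median level and consistent in every genotype, 1 per gene and without predicted genes, the same for promoters, up to 3 called members per list, and peaks nearest the targeted genes, given as a count. Members, rule and lists were chosen with earlier results of these data known. One promoter that the rule names is not reported here.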

Additional observations from a re-analysis of the deposited data

Results flagged for a closer look

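In 252 groups of 8 libraries (126 results, genotype-centred log2 values), 8 had 1 library far from the rest, with a gap to its neighbour, as a part of the group's range, above the 95% critical value of Dixon's test. Chance flags about 1 in 20 such groups. The gap was 0.539 of the range for the lowest library of replicates 3-4 at Bub1b (AID-Yeats2, replicate 4). In replicates 1-2 it was 0.545 at Ice1 (WT, replicate 2), 0.585 at Slc4a10 (Supt7l KO, replicate 2) and 0.69 at Vim (Supt7l KO, replicate 1), each for the lowest library. The highest library of replicates 3-4 at Hspa5 (AID-Zzz3, replicate 4) had 0.527. For classes it was 0.572 for peaks of the third level group in replicates 3-4 (WT, replicate 3), 0.582 for chromosome 4 in replicates 1-2 (AID-Yeats2, replicate 2) and 0.74 for chromosome 11 in replicates 3-4 (AID-Yeats2, replicate 3).

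At the Cyp1a1 promoter the difference between sets depended on genotype (edgeR interaction test, adjusted p = 0.0203): it was 1.45 on the log2 scale in Supt7l KO and between -0.20 and 0.12 in the other lines.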

How the results depend on the processing

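The 711 higher and 525 lower autosomal peaks stayed within 1.5 times under RLE scaling, library totals, loess offsets, no or a stricter low-count filter, an autosomal fit, DESeq2 (1026 of its 1227 calls shared) and without the distal parts of chromosomes 14 and 17. They were 26 and 17 with no genotype covariate, 403 and 319 with counts thinned to the smallest library, 158 and 100 at an adjusted p under 0.01, and 451 and 221 with gene density offsets (552 of those 672 peaks shared with the 1236). Leaving out 1 library gave 334 to 707 higher and 221 to 530 lower peaks. The counts moved by over 1.5 times without WT replicate 1 (398 and 325), AID-Zzz3 replicate 2 (440 and 330) or 3 (379 and 280), AID-Yeats2 replicate 1 (425 and 336) or 4 (420 and 303), Supt7l KO replicate 1 (334 and 221) or 4 (412 and 281) and, for lower peaks, AID-Zzz3 replicate 1 (335). Leaving out AID-Zzz3 gave 122 and 84, AID-Yeats2 292 and 224, Supt7l KO 176 and 124, and WT 405 and 301. Alone (edgeR), AID-Zzz3 gave 2 and 1, AID-Yeats2 0 and 0 (2205 and 2125 at an unadjusted p under 0.05), Supt7l KO 7 and 16, and WT 0 and 0 (2156 and 2168).

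The promoter shift of 0.031 was 0.0358 at 3000 bp (passing), 0.0225 to 0.0388 without single libraries (passing without WT replicate 4, exact permutation p = 0.0247) and -0.00577 with gene density offsets. Of 52 classes 23 passed: 13 to 23 without single libraries (13 without WT replicate 1 or 3, 14 and 15 without AID-Zzz3 replicate 3 and 2, 15 without Supt7l KO replicate 1), 9 with gene density offsets, 12 without AID-Yeats2, and 0 without AID-Zzz3 or Supt7l KO (20 and 14 at an unadjusted p under 0.05, smallest possible 0.00926, exact permutation). The difference of 0.18 between peaks with 18 to 72 and 0 to 5 genes was 0.16 to 0.19 without single libraries and 0.013 with gene density offsets, which remove it by construction. Genotype-dependent peaks numbered 1, with 2 for library totals or loess offsets and 0 for DESeq2 (1677 at an unadjusted p under 0.05). The 22 list members called were 1 with no genotype covariate, 14 thinned, 11 with gene density offsets, 10 to 25 without single libraries (10 without Supt7l KO replicate 1, 14 without its replicate 2 or 4, 12 without WT replicate 1, 13 without AID-Zzz3 replicate 4, 14 without AID-Yeats2 replicate 1), 4, 9 and 3 without AID-Zzz3, AID-Yeats2 and Supt7l KO, and 1 in Supt7l KO alone and 0 in each other line alone (edgeR; AID-Zzz3 90, AID-Yeats2 48 and WT 68 at an unadjusted p under 0.05). Of 55 named called peaks 35 were called without each library in turn, 15 without each genotype, 40 thinned, 39 with gene density offsets and 55 by DESeq2, and none of the 55 changed direction. Apart from list members, these peaks were named because their direction was the same in every genotype. A change of direction was therefore hardly possible for them. The cause of these moves was not tested, and gene density offsets and the omission of distal parts were chosen after seeing the data. No paired analysis was possible because the sets share no replicate numbers, and genotype, which both sets share, is already a term of the fit and the block of the permutation test. Counts thinned once to the total of the smallest library gave 722 calls, 599 of them among the 1236.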
